A study of Homo sapiens with 6 samples.

Results

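The 41 genes described here are the ligands, receptors, transducers, inhibitors and targets of the TGF-beta and BMP pathways, chosen by symbol and looked up in the deposited tables through their Ensembl identifiers. All 41 were among the 62696 genes listed, and 39 of them had enough counts to be tested, of 18569 genes tested in all. The RNA came from 12Z, an established human cell line of endometriosis epithelium, at passage 40. One group of 3 libraries (replicates A, B and C) came from cells given a control siRNA and the other 3 from cells given a single siRNA, LINC01638_2, against the long non-coding RNA LINC01638. Both groups were transfected with the same lipid reagent, kept in medium with fetal calf serum and harvested 72 h later. The labels do not say whether the replicates came from separate cultures, so the p-values rest on the spread between libraries alone, and that spread may be technical.

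TGF-beta ligands are secreted in a latent form that latent TGF-beta binding proteins tether to the matrix, and once released they join type II and type I receptor kinases that phosphorylate SMAD2 and SMAD3. BMP ligands use related receptors that phosphorylate SMAD1, SMAD5 and SMAD9, and secreted antagonists such as gremlin, noggin and chordin hold BMPs away from them. Both sets of SMADs enter the nucleus with SMAD4, and inhibitory SMADs, SMURF ubiquitin ligases and corepressors restrain them. In the endometrium and in endometriosis the TGF-beta branch is known for its part in tissue remodelling, fibrosis and epithelial-to-mesenchymal transition, and the BMP branch for its part in decidualization.

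The libraries held 45617234 to 58148664 counts on the strand used. LINC01638 itself was counted 407, 334 and 414 times in the control libraries (A, B and C in order) and 125, 103 and 123 times in the LINC01638 siRNA replicates, a fall from 7.70 ± 0.0943 to 2.11 ± 0.163 counts per 1e6 (CPM, with TMM-scaled library sizes; mean ± SD, n = 3 per group). Reads outside annotated exons made up 8.32% to 10.1% of mapped reads with control siRNA and 12.1% to 15.1% with LINC01638 siRNA, so this share moved with the groups and its part in the results was not tested. Of 8 epithelial markers, KRT8, KRT18 and KRT19 were abundant while EPCAM stood at 0.377 and 1.38 CPM and CDH1 at 8.14 and 3.58 CPM. Their summed level was 5194 to 5639 CPM with control siRNA and 3197 to 3723 CPM with LINC01638 siRNA, with 6 lower and 1 higher. Of 8 stromal markers 6 were lower and 2 higher, with COL1A1, COL3A1 and THY1 abundant and a summed level of 6737 to 8191 CPM against 5372 to 5806 CPM. The endothelial list summed to 13.1 to 16.1 CPM against 11.8 to 13.7 CPM and the immune list to 46.9 to 53.9 CPM against 34.8 to 36.1 CPM, with CD3E listed at 0 in every library. Of the 4 endothelial markers tested, CDH5, VWF and ESAM were higher and KDR, which holds most of that sum, was lower (12.3 to 8.0 CPM). Of the 4 immune markers tested, CSF1R was higher, CD14, which holds nearly all of that sum, was lower (48.9 to 34.6 CPM), and PTPRC and CD79A did not pass. Over all genes tested, 26.3% were higher and 29.6% lower by the same test. In bulk RNA, fewer cells of a type and less RNA per cell cannot be told apart.

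With LINC01638 siRNA some of the pathway's genes were higher and others lower, often within the same role. GREM1, the BMP antagonist gremlin, rose 2.45-fold, TGFB3 rose 1.90-fold and ID3 rose 1.74-fold, while PMEPA1, a TGF-beta feedback target, fell 2.21-fold, the antagonist NOG 2.04-fold, LTBP2 1.80-fold and SMURF2 1.72-fold. Of the 39 tested genes, 26 passed edgeR's quasi-likelihood test at a Benjamini-Hochberg adjusted p below 0.05, where 56% of all genes tested did. Of these 10 were higher, beside 26.3% of all genes, and 16 were lower, beside 29.6% of all genes. The share of the pathway's genes called was 66.7%, not far above that of all genes. At least 1.5-fold changes that passed the test numbered 7, with 3 higher and 4 lower, beside 22.8% of all genes (10.9% higher and 11.9% lower). The 3 libraries of one group lay wholly above those of the other for 28 genes, 11 higher and 17 lower with LINC01638 siRNA, beside 61.5% of all genes (29.4% higher and 32.1% lower). The median log2 fold change (LINC01638 siRNA minus control siRNA throughout) was -0.12 over the 39 genes and -0.00142 over all genes, and the median size without sign was 0.27 and 0.33. With library totals alone as the scaling, the median of all genes moved up by 0.10 and the split became 14 higher and 14 lower, while that of all genes went from 4887 higher and 5503 lower to 6349 higher and 4288 lower.

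**Figure D1:**
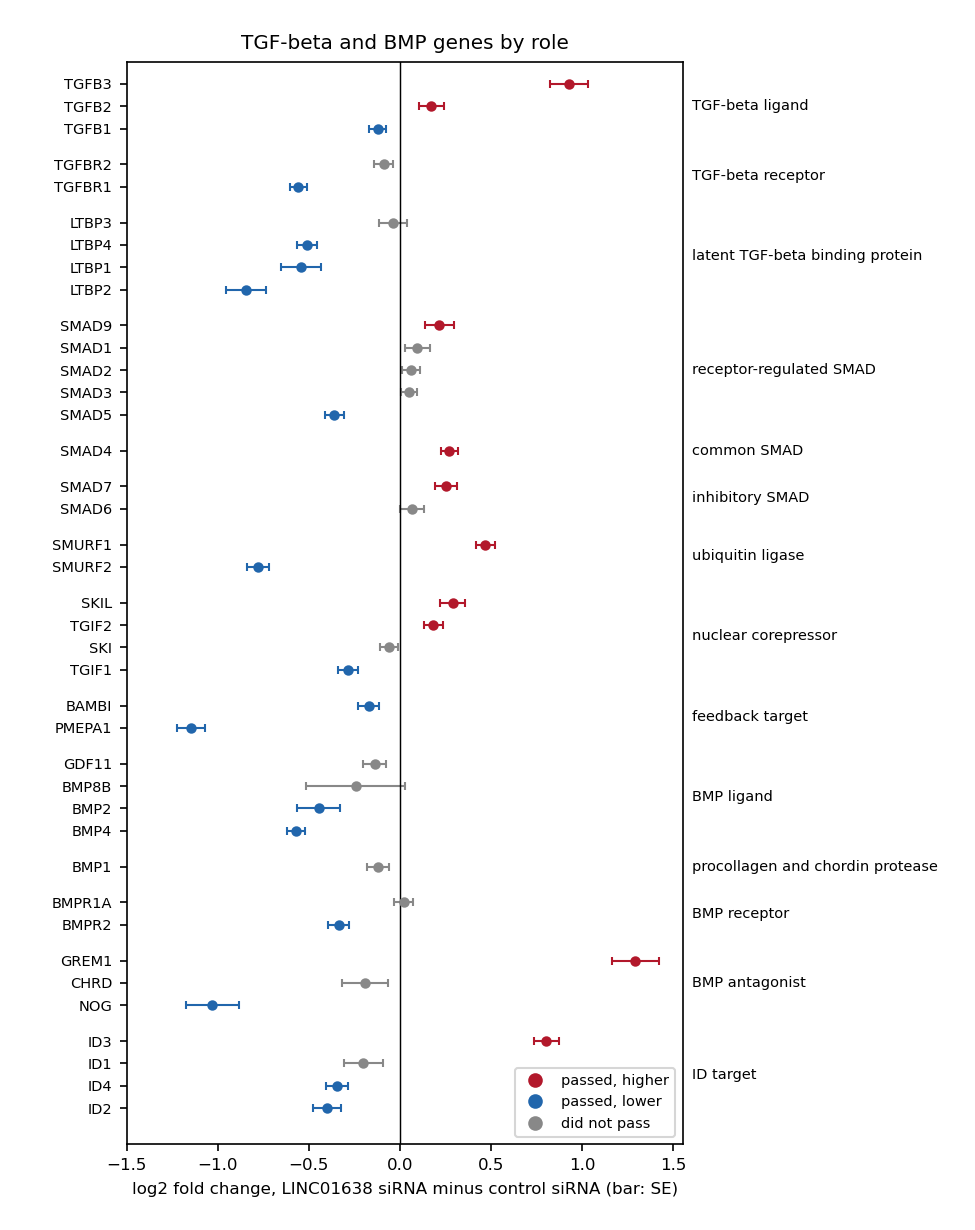
Log2 fold change of each of the 39 tested pathway genes by role, with bars for the standard error, red for genes that passed higher, blue for genes that passed lower and grey for genes that did not pass. GREM1 at 1.29 and PMEPA1 at -1.15 are the ends of the range, and red and blue points stand side by side among the ubiquitin ligases, antagonists and ID genes.

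The stretch before the transcription start is shown for 5 of these genes, as the place where SMAD proteins are known to bind many of their targets. They are GREM1 and PMEPA1, the ends of the range, TGFB3, the ligand that rose most, and BMP4 and BMPR2, a ligand and a receptor that fell. The letters are RefSeq's on GRCh38.p14, written 5′ to 3′ on the strand of the gene and covering the part of the 250 bases before the RefSeq start that lies outside annotated exons of that strand. The GREM1 and PMEPA1 stretches end where the annotated gene begins, and the BMP4 stretch lies inside the annotated span of that gene. Capitals mark GGCGCC, a GC-rich word that SMAD1 and SMAD5 can bind, and CAGACA, the core of the CAGA box bound by SMAD3 and SMAD4.
GREM1, chr15:32717754-32717973, plus strand: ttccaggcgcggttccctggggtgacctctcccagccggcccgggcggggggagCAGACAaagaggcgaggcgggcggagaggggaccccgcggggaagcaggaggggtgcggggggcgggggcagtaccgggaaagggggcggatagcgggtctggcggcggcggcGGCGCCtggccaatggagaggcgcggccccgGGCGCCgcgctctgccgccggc
PMEPA1, chr20:57711537-57711722, minus strand: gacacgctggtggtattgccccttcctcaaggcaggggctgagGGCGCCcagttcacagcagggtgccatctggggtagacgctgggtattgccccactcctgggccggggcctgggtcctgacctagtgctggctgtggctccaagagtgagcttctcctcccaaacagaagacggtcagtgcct
TGFB3, chr14:75983012-75983261, minus strand: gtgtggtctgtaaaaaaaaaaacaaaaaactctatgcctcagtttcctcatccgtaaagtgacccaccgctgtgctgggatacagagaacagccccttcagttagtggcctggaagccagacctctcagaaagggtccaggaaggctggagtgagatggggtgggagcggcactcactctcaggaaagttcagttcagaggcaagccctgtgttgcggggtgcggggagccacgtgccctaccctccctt
BMP4, chr14:53955051-53955300, minus strand: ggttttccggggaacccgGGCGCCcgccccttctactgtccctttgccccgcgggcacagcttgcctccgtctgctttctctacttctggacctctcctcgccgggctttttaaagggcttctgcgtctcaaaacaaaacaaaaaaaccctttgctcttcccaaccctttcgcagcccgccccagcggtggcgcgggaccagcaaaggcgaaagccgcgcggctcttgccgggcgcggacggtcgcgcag
BMPR2, chr2:202376077-202376326, plus strand: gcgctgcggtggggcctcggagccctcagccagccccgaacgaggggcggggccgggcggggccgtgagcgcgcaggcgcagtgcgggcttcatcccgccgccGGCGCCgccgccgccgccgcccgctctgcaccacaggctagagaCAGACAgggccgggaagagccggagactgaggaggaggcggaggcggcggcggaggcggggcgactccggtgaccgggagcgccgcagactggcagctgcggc

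GREM1 holds GGCGCC at 83 and 52 bases before its start and CAGACA at 196 bases. PMEPA1 holds GGCGCC at 207 bases, BMP4 at 232 bases, and BMPR2 holds GGCGCC at 147 bases and CAGACA at 103 bases, while the TGFB3 stretch holds neither word. TGFBR1, a receptor that fell more than BMPR2, is not shown and holds neither word in its 250 bases. The 5 shown therefore do not stand for the changed genes. Among the 37 pathway genes with a RefSeq promoter, 11 (29.7%) had GGCGCC on either strand within 250 bases before the start, against 16.1% of 27305 promoters and 21.3% of 15843 promoters of coding genes. The 11 were BAMBI, BMP4, BMPR2, CHRD, GREM1, LTBP2, PMEPA1, SKIL, SMAD2, SMAD3 and SMAD4, of which 3 were higher, 5 lower and 3 did not pass. CAGACA was in 5 (13.5%), against 13.6% of all and 11.5% of coding promoters: GREM1, TGFB2, BMPR2, LTBP4 and TGIF1, of which 2 were higher and 3 lower. Beside these calls, 26.3% of all genes tested were higher and 29.6% lower. The palindrome GTCTAGAC, the SMAD box, was in 1, SMAD6, against 0.176% of all promoters. None of the 4 ID genes had any of the 3 words in this window. A match is a description of the letters and not a bound site, and GTCTAGAC and CAGACA have the letters AGAC in common.

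Among the TGF-beta ligands, TGFB3 rose and the more abundant TGFB1 and TGFB2 moved little. TGFB3 (ENSG00000119699.8, chr14:75958099-75982991 on GRCh38, minus strand) stood at 4.32, 3.57 and 3.88 CPM in the control replicates (in the same order, as in all such triplets) and at 7.60, 7.10 and 7.75 CPM with LINC01638 siRNA. Every LINC01638 siRNA library lay above every control library, and the log2 fold change was 0.93 (SE 0.10, edgeR adjusted p = 2.46e-07). TGFB1, the isoform most often tied to fibrosis, stood at 109, 114 and 108 CPM and then 99.4, 103 and 102 CPM, a difference of -0.12 on the log2 scale (SE 0.046, edgeR adjusted p = 0.0303). The groups did not overlap for TGFB1, but its call was lost in 12 of 17 alternative analyses, among them those without control replicate B (adjusted p = 0.112), LINC01638 siRNA replicate A (0.113) or LINC01638 siRNA replicate C (0.0728). TGFB2, the third isoform, stood at 45.2, 49.9 and 52.1 CPM and 59.4, 48.9 and 57.4 CPM, and LINC01638 siRNA replicate B fell inside the control range. Its log2 fold change of 0.17 (SE 0.070, adjusted p = 0.0465 by edgeR) lost its call in 6 alternatives, including without control replicate A (adjusted p = 0.185) or B (0.0758) and without LINC01638 siRNA replicate A (0.209) or C (0.158). RPKM is CPM divided by the kilobases of annotated exon. That length is the union of all annotated exons of a gene, so levels and shares compared between genes depend on it. On this scale TGFB1 made up 76.8% ± 1.22 of the 3 ligands' summed level with control siRNA and 71.9% ± 2.22 with LINC01638 siRNA. TGFB3 made up 1.80% ± 0.217 and 3.50% ± 0.103. The summed level was 44.4 ± 1.14 RPKM and 43.5 ± 0.714 RPKM, so the rise of TGFB3 left TGFB1 the main ligand.

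Of the 4 latent TGF-beta binding proteins, matrix proteins that mostly hold the latent ligand, 3 fell and none rose. Of all genes tested, 29.6% were lower and 26.3% higher. LTBP2, which unlike its relatives does not bind latent TGF-beta, stood at 23.4, 31.3 and 27.6 CPM with control siRNA and 14.7, 17.5 and 13.7 CPM with LINC01638 siRNA. The groups lay apart, and the log2 fold change was -0.84 (SE 0.11, adjusted p = 2.29e-05 by edgeR). LTBP4 fell from 68.5 ± 2.65 to 48.0 ± 2.79 CPM (-0.51, SE 0.055, adjusted p = 1.38e-07), and the scarcer LTBP1 from 5.26 ± 0.353 to 3.60 ± 0.193 CPM (-0.54, SE 0.11, adjusted p = 3.13e-04). LTBP3 did not pass: its control libraries ranged from 87.9 to 113 CPM and contained all 3 LINC01638 siRNA libraries (-0.04, adjusted p = 0.684). LTBP3 was therefore 44.3% ± 1.5 of the family's summed RPKM with control siRNA and 53.9% ± 1.60 with LINC01638 siRNA.

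The type I receptor TGFBR1, the kinase that phosphorylates SMAD2 and SMAD3, fell, and its type II partner TGFBR2 did not pass. TGFBR1 stood at 99.1, 98.2 and 105 CPM with control siRNA and 69.8, 66.3 and 69.0 CPM with LINC01638 siRNA. The highest LINC01638 siRNA library was well below the lowest control, and the log2 fold change was -0.56 (SE 0.049, edgeR adjusted p = 7.46e-09). TGFBR2 stood at 70.4, 79.8 and 77.5 and 73.2, 70.2 and 70.5 CPM, with overlapping groups and a log2 fold change of -0.09 (SE 0.053, adjusted p = 0.162). Control replicate A was the library inside the other group's range, and without it TGFBR2 passed at -0.13 (adjusted p = 0.0296).

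No SMAD gene changed by 1.5-fold or more. SMAD2 and SMAD3, the transducers of TGF-beta, had log2 fold changes of 0.06 and 0.05 and did not pass (adjusted p = 0.296 and 0.384). They were at 187 ± 6.52 and 195 ± 7.12 CPM for SMAD2 and at 155 ± 1.31 and 160.1 ± 4.47 CPM for SMAD3. Of the transducers of BMP, SMAD5 fell, SMAD9 rose and SMAD1 did not pass. SMAD5 went from 97.0 ± 1.35 to 75.6 ± 3.85 CPM, apart in all libraries (-0.36, SE 0.050, edgeR adjusted p = 3.64e-06). SMAD1, at 16.9 ± 0.821 and 18.1 ± 0.341 CPM, had groups that just failed to touch and an adjusted p of 0.253. SMAD9 went from 11.7 ± 0.712 to 13.6 ± 0.684 CPM (0.21, SE 0.078, adjusted p = 0.0250), a call lost in 7 of 17 alternatives. These include leaving out control replicate A (adjusted p = 0.0547) or B (0.0956) and LINC01638 siRNA replicate A (0.0518) or B (0.0903).

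SMAD4, the shared partner of both branches, rose from 86.0, 83.1 and 83.6 CPM to 98.6, 103 and 104 CPM, with the groups apart (0.27, SE 0.047, edgeR adjusted p = 5.54e-05). SMAD7, which blocks the type I receptors and is itself induced by TGF-beta, rose from 24.1 ± 0.405 to 28.7 ± 1.09 CPM (0.25, SE 0.060, adjusted p = 0.00149). SMAD6, the inhibitory SMAD that acts mainly on the BMP branch, stood at 39.4 ± 2.86 and 41.2 ± 3.37 CPM and did not pass (0.07, adjusted p = 0.423). Per kilobase of exon the levels ran from 17.0 RPKM for SMAD3 and 10.7 RPKM for SMAD5 down to 2.04 RPKM for SMAD9 in control libraries.

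The pair of SMURF ubiquitin ligases, which mark SMADs and receptors for degradation, moved in opposite directions. SMURF2 stood at 134, 126 and 132 CPM with control siRNA and 70.8, 84.2 and 73.2 CPM with LINC01638 siRNA, a difference of -0.78 on the log2 scale (SE 0.059, edgeR adjusted p = 1.39e-09). SMURF1 stood at 56.3, 60.0 and 56.2 CPM and 79.9, 77.2 and 81.4 CPM, a log2 fold change of 0.47 (SE 0.050, adjusted p = 1.27e-07 by edgeR). Neither gene's groups overlapped, and both calls held in all 17 alternatives. Per kilobase, SMURF1 was 32.8% ± 1.56 of the pair's summed level in control libraries and 53.8% ± 2.90 with LINC01638 siRNA. SMURF1 was above SMURF2 in LINC01638 siRNA replicates A and C, by CPM as well. In replicate B the pair was nearly level per kilobase (50.4% for SMURF1), and by CPM SMURF2 was still the higher (84.2 against 77.2). The summed level went from 27.9 ± 0.292 to 23.6 ± 0.750 RPKM.

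The nuclear corepressors SKI, SKIL, TGIF1 and TGIF2, which recruit histone deacetylases to SMADs, were also mixed. SKIL rose from 71.6, 62.4 and 70.7 CPM to 75.6, 92.2 and 82.5 CPM (0.29, SE 0.069, edgeR adjusted p = 0.00221). TGIF2 rose from 38.6 ± 0.622 to 43.8 ± 1.07 CPM (0.18, SE 0.053, adjusted p = 0.00619), while TGIF1 fell from 42.2 ± 1.79 to 34.6 ± 1.35 CPM (-0.29, SE 0.057, adjusted p = 2.47e-04). All 3 had groups apart. SKI, the most abundant of the 4 per kilobase at 36.8 and 35.2 RPKM, did not pass (-0.06, adjusted p = 0.289). A read-through gene, TGIF2-RAB5IF, shares part of TGIF2's exons, and 93.4% of the 50-base windows in TGIF2's exons are found there alone.

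PMEPA1 and BAMBI are membrane proteins that TGF-beta or BMP induces and that then damp the pathway, and both fell. PMEPA1 (ENSG00000124225.16, chr20:57648392-57711536, minus strand), which sequesters SMAD2 and SMAD3, stood at 19.4, 20.5 and 18.9 CPM with control siRNA and 8.74, 9.41 and 8.47 CPM with LINC01638 siRNA. No library of one group came near the other, and the log2 fold change of -1.15 (SE 0.076, adjusted p = 1.65e-10 by edgeR) held its call in all 17 alternatives. NKILA, a long non-coding RNA on the opposite strand at the same place, looked up after its values were seen, also fell, from 1.46 ± 0.334 to 0.693 ± 0.0702 CPM (-1.09, SE 0.23, adjusted p = 3.70e-04). BAMBI, a decoy receptor without a kinase, stood at 31.3, 30.9 and 32.1 CPM and 27.8, 27.6 and 28.4 CPM, apart but close (-0.17, SE 0.057, edgeR adjusted p = 0.0149). Its call was lost in 4 alternatives, one of them the analysis without control replicate C (adjusted p = 0.0607).

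Among the BMP ligands, BMP4 and BMP2 fell and none rose. BMP4 (ENSG00000125378.16, chr14:53949736-53958761, minus strand) was the main one, at 82.2, 81.1 and 83.0 CPM with control siRNA and 57.5, 52.8 and 55.4 CPM with LINC01638 siRNA. The groups were far apart beside their spread, with a difference of -0.57 on the log2 scale (SE 0.050, edgeR adjusted p = 7.55e-09), and the fold of 1.49 lies just under the 1.5 used above, as do 1.47 for TGFBR1 and 1.46 for LTBP1. BMP2 stood at 8.11, 8.36 and 9.14 CPM and 5.68, 7.80 and 5.37 CPM, with LINC01638 siRNA replicate B close to the controls (-0.45, SE 0.12, adjusted p = 0.00399). GDF11, a ligand of the same superfamily that signals through SMAD2 and SMAD3, stood at 27.0 ± 0.393 and 24.5 ± 1.12 CPM and missed the threshold (-0.14, adjusted p = 0.0590), which it passed without LINC01638 siRNA replicate A (adjusted p = 0.0411). BMP8B was scarce, at 0.927 ± 0.128 and 0.784 ± 0.323 CPM, and did not pass (-0.24, adjusted p = 0.469). Only 87.3% of its 50-base exon windows are unique, the rest being shared mainly with BMP8A, so reads of these copies may be split or lost. BMP6 was counted 0, 2 and 0 times with control siRNA and 1, 5 and 13 times with LINC01638 siRNA and was not tested.

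Together the 5 genes grouped here as BMP ligands summed to 32.3 ± 0.391 RPKM with control siRNA and 22.7 ± 0.674 RPKM with LINC01638 siRNA. This sum includes GDF11 and leaves out GDF6, a BMP described below. BMP4 was 82.4% ± 0.154 of that sum and then 79.0% ± 1.52, and GDF11 9.63% ± 0.242 and 12.4% ± 0.217. BMP1, which despite its name is a protease that cleaves procollagens and chordin, ranged from 131 to 161 CPM in control libraries and from 130.2 to 135.0 CPM with LINC01638 siRNA. It did not pass (-0.12, adjusted p = 0.0973), but did without control replicate A (-0.18, adjusted p = 0.0101).

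BMPR2, the type II receptor of BMPs, fell, and the type I receptor BMPR1A did not pass. BMPR2 stood at 130.3, 148 and 144 CPM with control siRNA and 116, 115 and 104 CPM with LINC01638 siRNA (-0.34, SE 0.057, edgeR adjusted p = 4.78e-05). The lowest control library, replicate A, was still above every LINC01638 siRNA library. BMPR1A was at 54.8 ± 2.69 and 55.5 ± 2.31 CPM with overlapping groups (0.02, SE 0.054, adjusted p = 0.791), and 88.0% of its exon windows are unique because pseudogenes share the rest. BMPR1B, the other type I receptor here, was counted 2, 0 and 0 times and 0, 4 and 3 times and was not tested.

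The secreted BMP antagonists GREM1 and NOG moved in opposite directions. GREM1 (ENSG00000166923.12, chr15:32717974-32745107, plus strand) stood at 35.4, 40.1 and 39.1 CPM with control siRNA and 84.5, 113 and 82.9 CPM with LINC01638 siRNA. Every LINC01638 siRNA library exceeded every control, replicate B by most, and the log2 fold change was 1.29 (SE 0.13, edgeR adjusted p = 7.38e-05). NOG, which encodes noggin, was scarce, at 5.27, 5.04 and 4.75 CPM and 2.42, 1.89 and 3.03 CPM, and fell (-1.03, SE 0.14, edgeR adjusted p = 4.27e-06). CHRD, which encodes chordin, stood at 3.89 ± 0.383 and 3.39 ± 0.342 CPM and did not pass (-0.19, SE 0.13, adjusted p = 0.210). The calls of GREM1 and NOG held in all 17 alternatives. Per kilobase of exon, GREM1 and NOG were about level in control libraries, at 44.7% ± 2.29 and 45.3% ± 2.65 of the 3 antagonists' summed RPKM. This rests on annotated exon lengths of 14606 and 1892 bases, and by CPM GREM1 was far above NOG (38.2 against 5.02). With LINC01638 siRNA the shares were 77.6% ± 5.94 for GREM1 and 16.0% ± 4.87 for NOG, and the summed level went from 5.86 ± 0.177 to 8.21 ± 0.861 RPKM.

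**Figure D2:**
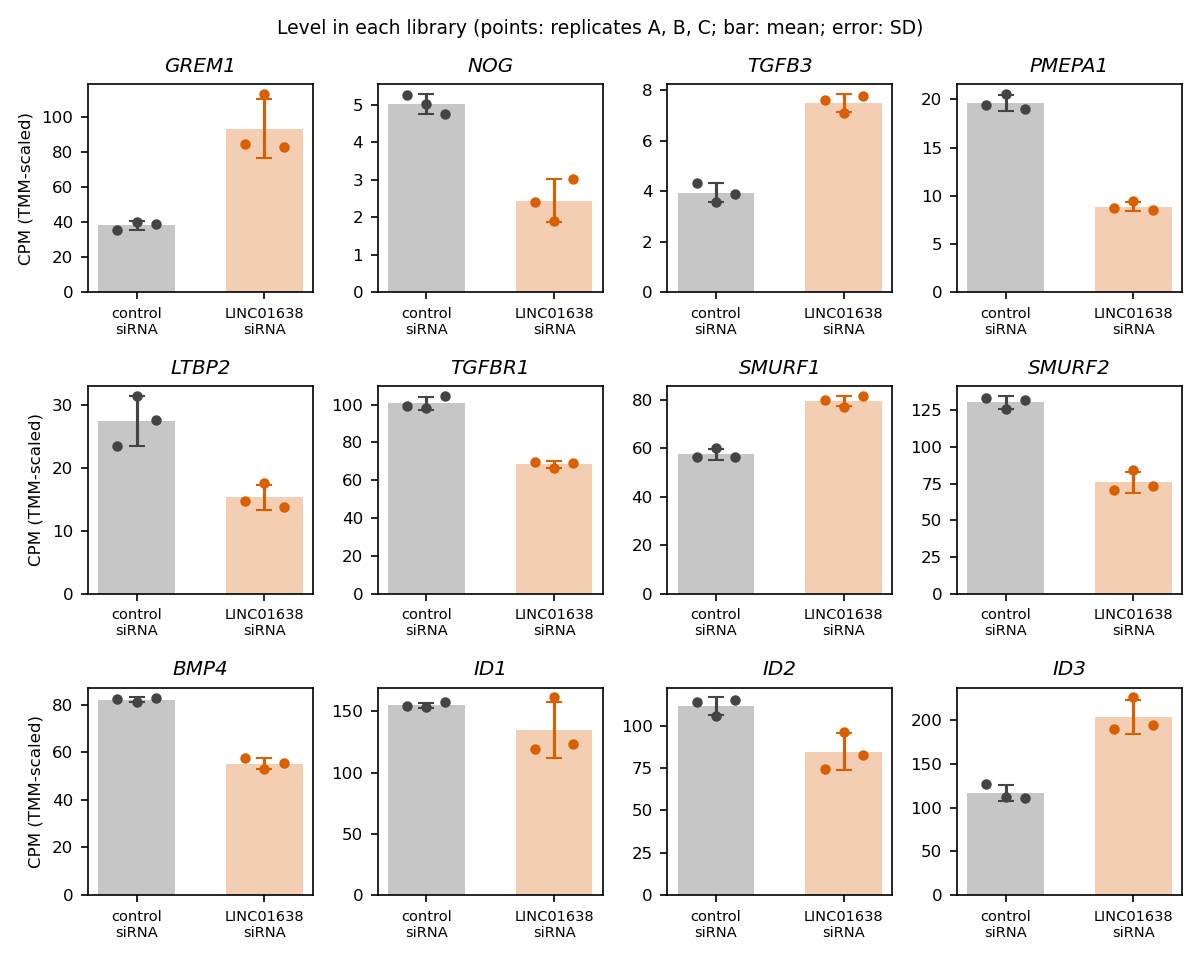
Level (CPM, axis from 0) of 12 pathway genes in each library, with points for replicates A, B and C, bars for the mean and error bars for the SD (n = 3). GREM1, TGFB3, SMURF1 and ID3 sit higher with LINC01638 siRNA and NOG, PMEPA1, LTBP2, TGFBR1, SMURF2, BMP4 and ID2 lower, while ID1 overlaps, with replicate B of the LINC01638 siRNA group above the controls.

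The ID genes encode inhibitors of basic helix-loop-helix transcription factors and are classic early targets of BMP signalling, and they did not move together. ID3 (ENSG00000117318.9, chr1:23557918-23559794, minus strand) stood at 127, 112 and 111 CPM with control siRNA and 189.7, 226 and 195 CPM with LINC01638 siRNA, a log2 fold change of 0.80 (SE 0.068, adjusted p = 6.89e-08 by edgeR). ID2 went the other way, from 114, 106 and 115 CPM to 74.4, 96.1 and 83.0 CPM (-0.40, SE 0.076, edgeR adjusted p = 5.20e-04). ID4 fell as well, from 110.2, 105 and 108 CPM to 78.0, 94.4 and 81.5 CPM (-0.35, SE 0.060, edgeR adjusted p = 6.99e-05). The groups were apart for all 3 of these. ID1 stood at 154, 154 and 157 CPM and 119.7, 161 and 123 CPM: LINC01638 siRNA replicates A and C lay below the controls and replicate B above them. It did not pass (-0.20, SE 0.11, adjusted p = 0.142), and without replicate B it did (-0.36, adjusted p = 1.22e-05). LINC01638 siRNA replicate B was the highest library of its group for all 4 ID genes and for 21 of the 39 tested genes.

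The proportions of the ID genes varied less between LINC01638 siRNA libraries than their levels did. ID3 made up 24.0, 22.3 and 21.5% of the 4 genes' summed RPKM in the control replicates and 39.2, 36.9 and 38.6% with LINC01638 siRNA. ID1 made up 42.5, 44.6 and 44.4% and then 36.0, 38.5 and 35.6%, below the controls also in replicate B. The shares of ID2 went from 17.6% ± 0.516 to 12.9% ± 0.451 and of ID4 from 16.0% ± 0.00989 to 12.2% ± 0.306. The summed level of the 4 was 287 ± 7.49 RPKM and 297 ± 38.1 RPKM, a difference smaller than the spread of the LINC01638 siRNA libraries. ID1 was the most abundant of the 4 in every control library, and ID3 was above it in LINC01638 siRNA replicates A and C but not in B.

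**Figure D3:**
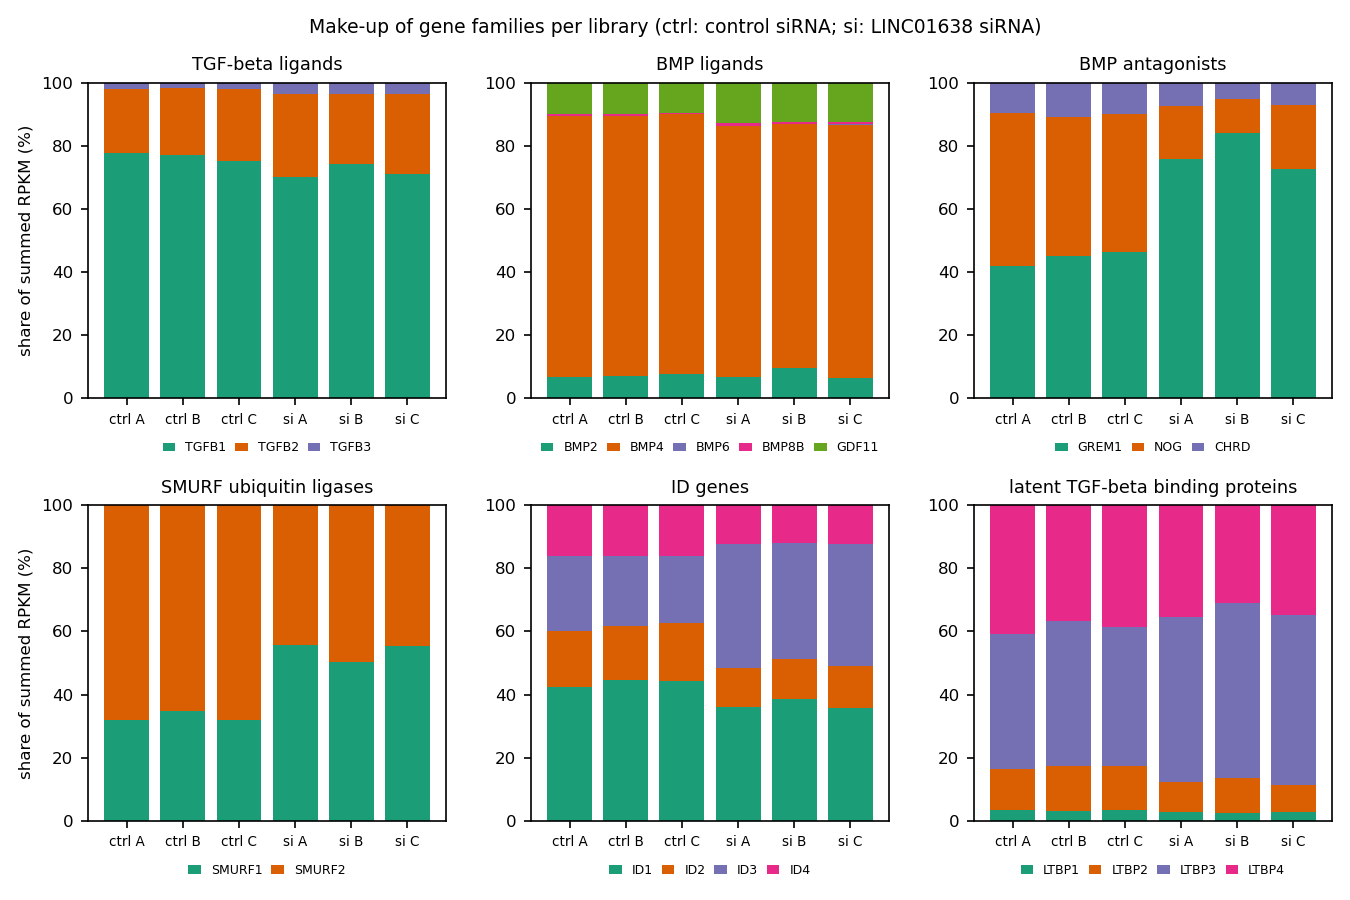
Share of each gene in the summed RPKM of its family (percent, stacked) in each of the 6 libraries, for 6 families. GREM1 widens at the expense of NOG, SMURF1 of SMURF2 and ID3 of ID1, ID2 and ID4, while TGFB1 and BMP4 remain the main ligands in all 6 libraries.

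On a per-kilobase scale the ID genes were the most abundant members, at 126, 64.9, 50.6 and 45.9 RPKM for ID1, ID3, ID2 and ID4 in control libraries. SKI (36.8 RPKM), TGFB1 (34.1 RPKM) and BMP4 (26.6 RPKM) followed. At the low end of the tested genes were TGFB3 (0.799 RPKM), LTBP1 (0.718 RPKM), CHRD (0.587 RPKM) and BMP8B (0.192 RPKM), so of the 3 genes that rose at least 1.5-fold one was among the scarcest and one among the most abundant.

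**Figure D4:**
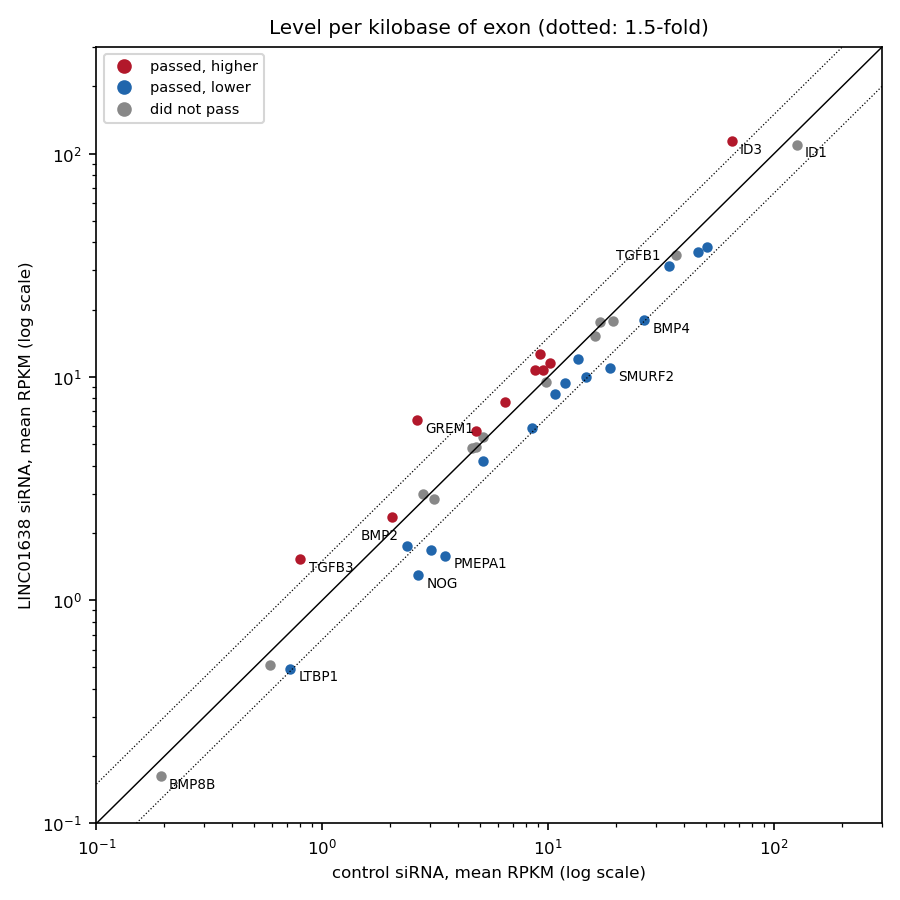
Mean RPKM with control siRNA against mean RPKM with LINC01638 siRNA for the 39 tested pathway genes, both axes logarithmic, with the line of equality and dotted lines at 1.5-fold. GREM1, TGFB3 and ID3 lie above the upper dotted line and PMEPA1, NOG, LTBP2 and SMURF2, of which LTBP2 has no name in the plot, below the lower one.

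Other genes of the pathway were taken from 7 lists, 140 genes in all. They were compiled by hand from general knowledge, with earlier results of these data known. Of the 110 tested, 34 were higher, 41 lower and 35 did not pass, beside the 56% of all genes called. Among 4 tested further ligands, GDF15, a divergent family member and stress-responsive cytokine, rose from 3.90, 5.29 and 5.54 CPM to 58.4, 73.4 and 55.8 CPM (3.67, SE 0.15, edgeR adjusted p = 1.17e-07). It does not signal through the TGF-beta or BMP receptors but through GFRAL. AMH, anti-Müllerian hormone, rose from 7.64 ± 1.01 to 14.6 ± 2.11 CPM and GDF6, a BMP, fell from 1.90 ± 0.519 to 0.614 ± 0.164 CPM. Of 7 tested further receptors and co-receptors, 1 was lower, the co-receptor TGFBR3 (-0.24, edgeR adjusted p = 0.0273). Its call was lost without control replicate B (adjusted p = 0.0801) or C (0.142) or LINC01638 siRNA replicate B (0.126).

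The counts of this paragraph stand beside 26.3% of all genes tested that were higher and 29.6% that were lower. Of 19 tested extracellular activators, stores and antagonists, 4 were higher, 6 lower and 9 did not pass. DCN, one of the 6, is also a stromal marker. ITGB8, the integrin subunit that releases latent TGF-beta, fell from 53.7, 59.3 and 55.5 CPM to 25.0, 27.3 and 22.6 CPM (-1.17, SE 0.066, edgeR adjusted p = 1.99e-11). The BMP-binding proteins TWSG1 (-0.80) and NBL1 (-0.61) fell, and FURIN, the protease that processes the ligand precursors, rose (0.42). Of 24 intracellular regulators, 10 were higher, 9 lower and 5 did not pass. The endosomal SMAD adaptor ZFYVE16 rose from 47.5 ± 0.525 to 82.8 ± 1.62 CPM, while TAB1, the activator of the kinase TAK1, fell from 49.9 ± 1.89 to 25.2 ± 1.90 CPM and the ubiquitin ligase STUB1 from 100.4 ± 3.68 to 64.6 ± 2.41 CPM. The list also holds MAN1A1, a Golgi mannosidase, which fell (-1.11), and without it the counts are 10, 8 and 5 of 23. Of 17 tested nuclear partners of SMADs, 7 were higher, 3 lower and 7 did not pass, with the deacetylase HDAC1 (1.06) and the acetyltransferase CREBBP (0.48) higher and RBL1 (-0.47) and ZEB1 (-0.48) lower.

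The list of genes that TGF-beta is known to induce, beside the 41, held 31 tested genes. Of these 20 were lower, beside 29.6% of all genes, 7 were higher, beside 26.3%, and 4 did not pass. The median log2 fold change was -0.53, beside -0.00142 for all genes. Because earlier results of these data were known when the list was made, these counts are not an independent readout of the pathway. TAGLN, an actin-binding protein of contractile cells, fell from 76.9, 63.6 and 65.7 CPM to 28.5, 29.2 and 29.5 CPM (-1.24, SE 0.065, edgeR adjusted p = 1.04e-11). The metalloprotease ADAM12 fell from 176 ± 12.5 to 95.6 ± 5.91 CPM and the transcription factor JUNB from 229.5 ± 9.62 to 129.6 ± 6.09 CPM. Against these, CDKN1A, the cell cycle inhibitor p21 and also a p53 target, rose from 125, 117 and 119 CPM to 398, 467 and 393 CPM (1.80, SE 0.063, edgeR adjusted p = 7.84e-14). COL1A1 is both in this list and among the stromal markers, whose summed level also fell, and the part of that in the list's count was not tested. Of 9 tested genes listed as BMP-induced, beyond the ID genes, 4 were higher, 2 lower and 3 did not pass, with a median of 0.24. HEY1 and MSX1 were higher at low levels (0.559 to 1.24 and 0.147 to 0.454 CPM). ERFE, among the 2 lower, fell from 10.4 ± 0.984 to 4.65 ± 0.587 CPM. It is a hormone that binds BMPs and not an established BMP target, so its place in this list is doubtful. RUNX2, which is also in the list of nuclear partners, fell (-0.32).

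**Figure D5:**
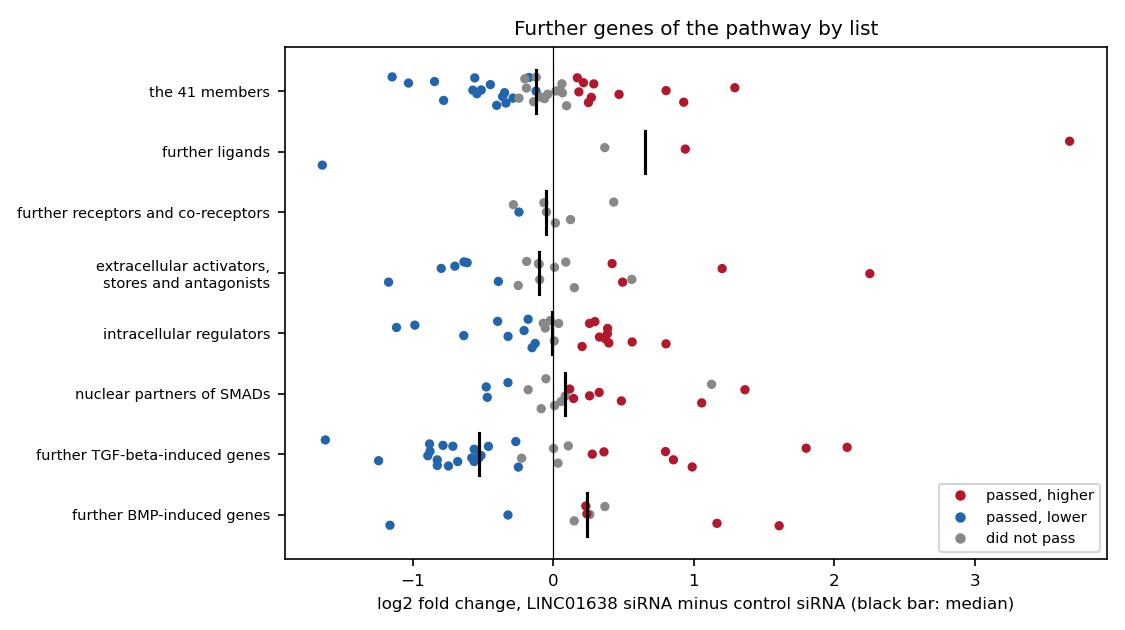
Log2 fold change of every tested gene in the 41 and in the 7 further lists, red for genes that passed higher, blue for genes that passed lower, grey for genes that did not pass and a black bar for the median of each row. The bar for TGF-beta-induced genes is at -0.53 and the one for BMP-induced genes at 0.24, and GDF15 stands alone at 3.67.

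Transcripts on the opposite strand of the members bear on what each gene's counts hold. Of the antisense RNAs named after a member, 3 were tested. GREM1-AS1 was called higher at very low levels, 0.344 and 0.581 CPM (0.76, SE 0.32, edgeR adjusted p = 0.0475). Its counts were 21, 18 and 12 with control siRNA and 33, 28 and 36 with LINC01638 siRNA. It overlaps the start of GREM1, and 92.1% of the reads over it lay on GREM1's strand. What its own counts derive from was not tested. ID2-AS1 (-0.12, edgeR adjusted p = 0.486) and TGFB2-AS1 (0.18, adjusted p = 0.715) did not pass. TGFB2-OT1, by contrast, lies within TGFB2 on the same strand, and TGFB2's exon windows are 74.6% unique for this reason. It was counted 0 times in every library. Reads from the shared stretch may be lost, so TGFB2's RPKM and its share among the ligands may be too low, which was not tested. In the count column for the opposite strand, TGFB1 held 41.3% of its reads of both strands, with HNRNPUL1, CCDC97 and TMEM91 annotated there, and BMP6 99.7%, with no gene annotated on the other strand. That column also lists BMP6 at 19.8 and 19.5 CPM, which come from the other strand and are not counted as BMP6 here.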

How the data were processed

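Per the labels' protocols, total RNA from 3 control siRNA and 3 LINC01638 siRNA libraries was depleted of ribosomal RNA and prepared with a directional kit. The submitters' processing notes list GRCh38 with the tools STAR 2.7.10b and R 4.2.1, and the authors deposited raw counts per gene, unnormalized, in 1 table per library. Which annotation release was counted is not given in the sources used here. Of the count columns, the reverse-strand one was used, in keeping with the kit, and rows for reads without a gene were left out of totals. Of the 62696 identifiers, 61918 matched a symbol exactly and 754 without the version suffix. Positions and exon lengths came from GENCODE 29, and promoter letters from RefSeq on GRCh38.p14. Genes were filtered with filterByExpr (minimum count 10, total 15), TMM-scaled (trimmed mean of M-values) and compared with edgeR 4.0.16's robust quasi-likelihood F test in R 4.3.3. P-values were adjusted by Benjamini-Hochberg over all 18569 genes, with a threshold of 0.05, and SE is the log2 fold change over the square root of F. The test was checked on simulated data in which few genes changed. It found 65.3% of 1.25-fold, 68% of 1.5-fold and 100% of 4-fold changes there. In the real data 56% of genes were called, so these rates may not carry over. Replicate letters did not pair the libraries, and replicates differed by more than sampling noise. The 41 genes and all lists were chosen with earlier results of these data known. All 41 are described, and of each further list up to 4 genes past the threshold with the lowest p. The 17 alternatives covered the strand column, scaling, DESeq2 1.42.0, limma 3.58.1 (voom), a 1.2-fold minimum, filters, protein-coding genes, a replicate block and leaving out each library.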

Additional observations from a re-analysis of the deposited data

Results flagged for a closer look

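In the opposite-strand column, which the comparisons above do not use, reads over TGFB3 and over ID3 were more frequent with LINC01638 siRNA than with control siRNA. Over TGFB3 the log2 fold change was 1.38 (edgeR adjusted p = 1.13e-04), and these reads were 11.0% of the gene's reads of both strands with control siRNA and 15.1% with LINC01638 siRNA. IFT43 and TGFB3-AS1 are annotated on that strand. Over ID3 the log2 fold change was 1.44 (edgeR adjusted p = 2.23e-04), and the share was 0.301% and 0.492%, with no gene annotated on that strand. In this column 27.4% of 11749 genes tested were called, and of 32 pathway genes tested 2 were higher and 2 lower. Both genes also rose on their own strand, and what the reads derive from was not tested.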

How the results depend on the processing

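Of the 26 calls among the pathway's genes, 14 (4 higher, 10 lower) were made in all 17 alternatives. SMAD4, SMAD7, SKIL, TGIF1, TGIF2, BMP2, BMPR2 and ID4 lost theirs only where more than a 1.2-fold change was required. That setting called 31.8% of all genes, beside 56% in the main test. TGFB1, TGFB2, SMAD9 and BAMBI lost their calls in other alternatives as well. The matching share over all genes was not counted. Requiring more than a 1.2-fold change (edgeR's glmTreat) left 2700 higher and 3207 lower among all genes, 4 higher and 10 lower among the 41, and 21 higher and 31 lower among the further pathway genes (34 and 41 in the main test). With library totals alone the signs turned for TGFBR2 (0.013), LTBP3 (0.063) and SKI (0.040). LTBP3 also turned with upper-quartile scaling (0.010), with protein-coding genes only (0.00266) and without control replicate B (0.054), its range with 1 library left out being -0.12 to 0.054, and SMAD6 turned without LINC01638 siRNA replicate B (-0.00488; up to 0.12 without control replicate B). BMP8B turned in the column without strand (0.29), and BMPR1A there (-0.0235), without control replicate A (-0.00365) and without LINC01638 siRNA replicate B (-0.0208; up to 0.059 without control replicate C). None of these genes had passed the main test. Leaving out 1 library at a time gave 8 to 10 higher and 15 to 18 lower among the 41, beside 49.4% to 52.8% of all genes called. Same-letter libraries did not deviate together (correlations -0.0753, -0.0203 and -0.0177), and with the replicate block the 41 gave 10 higher and 16 lower and all genes 4676 higher and 5286 lower. ID1 passed with the block (adjusted p = 0.0202), without a filter (8.60e-04) and by limma-voom (0.0309), against 0.142 in the main test, and over its alternatives its log2 fold change ran from -0.36 to -0.10. With counts of 0 to 13 per library, changes in BMP6 and BMPR1B could not be measured at this depth.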

Other observations

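Genes below were picked after their values were seen. Within the TGF-beta-induced list 20 of 31 tested genes were lower and 7 higher, beside 29.6% and 26.3% of all genes. Its matrix and cytoskeletal genes went both ways with LINC01638 siRNA. COL5A1 (-0.75, edgeR adjusted p = 6.65e-07), COL1A2 (-0.89, adjusted p = 7.55e-09), LOX, which crosslinks collagen (-0.78, adjusted p = 5.36e-09), and tropomyosin TPM1 (-0.82, adjusted p = 2.89e-10) were lower. Smooth muscle actin ACTA2 (0.85, edgeR adjusted p = 8.33e-05) and the matrix protease MMP2 (0.28, adjusted p = 0.00380) were higher. ACTA2 was scarce, at 2.30 CPM with control siRNA and 4.18 CPM with LINC01638 siRNA. COL4A1 (-0.23, edgeR adjusted p = 0.0591) and FN1 (0.03, adjusted p = 0.871) did not pass.

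The related transcription factors SNAI2 and SNAI1, repressors of epithelial genes, went apart. SNAI2 fell from 13.5, 12.7 and 12.0 CPM to 3.57, 5.20 and 3.73 CPM (-1.62, SE 0.12, edgeR adjusted p = 9.94e-10). SNAI1 rose from 6.38, 5.84 and 5.28 CPM to 7.27, 7.68 and 7.52 CPM (0.36, SE 0.098, adjusted p = 0.00379).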
